A study of Mus musculus with 8 samples.

Results

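The genes described here are Socs1 and 9 other genes of STAT5 feedback: Socs2, Socs3, Cish, Pim1, Pim2, Stat5a, Stat5b, Jak1 and Jak3. They were read on dual-colour mouse expression arrays through every non-control probe that carries one of these gene names, 19 probes of 41174 on the array and 10 of the 20119 features whose signal could be followed. IL-7, the cytokine that keeps B cell precursors growing, binds a receptor whose chains carry the kinases JAK1 and JAK3. The kinases phosphorylate STAT5, which enters the nucleus and switches on survival genes such as the PIM kinases. It also switches on Cish and the SOCS genes, whose products bind receptors or kinases and shut the signal down. Socs1 is in addition an interferon target that blocks JAK1, so it stands where both kinds of cytokine signal meet. Several of these genes were picked because their ratios on these arrays were known. All their values are therefore a description, with no test.

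The RNAs came from pro/preB cells of Pax5-/- mouse bone marrow, which lack the B lineage commitment factor Pax5 and were grown with IL-7 on gamma-irradiated OP9 stromal cells. Clone4 cells carried 2 retroviral constructs kept by drug selection, rtTA (the doxycycline-dependent transactivator) and huPax5, a human Pax5 gene behind the promoter that rtTA drives. They had received doxycycline at 10, 300 or 1000 ng/ml. Pax5sz2 cells, labelled as treated with doxycycline at no stated dose, carried rtTA without huPax5. Each of these 4 RNAs, called the named RNA below, was set against RNA of clone4 huPax5 cells that had no doxycycline (0 ng/ml). A pair of dye-swapped arrays held each comparison, which makes 8 arrays. The dose comparisons thus follow 1 clone with its inducer. The Pax5sz2 comparison sets different cells against clone4, and there the cells, the transgene and the drug cannot be told apart. Each comparison rests on 1 RNA per side on 2 technical arrays, so every ± below is the SD of those 2 arrays and not of cultures. The labels give the 4 comparisons the same control, and do not say whether it was 1 extract.

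A ratio is the log2 of named RNA over clone4 without doxycycline, so that a positive ratio means higher in the named RNA. A gene was counted as different only if its ratio reached 1 (2-fold) in 1 direction on both arrays. Where a gene has several probes, its brightest probe stands for it and the others are given beside it. Spots well above background made up 59.5% to 75.5% of a channel on 6 arrays, and 40.4% to 45.1% on the 1000 ng/ml pair, whose multiplier for that call was 2.6 in place of 13. No spot was saturated, and the number of arrays limits the precision. Across the brightest probes of the 20119 features, the 2 arrays of a comparison correlated at r = 0.836 for 10 ng/ml, 0.641 for 300 ng/ml, 0.829 for 1000 ng/ml and 0.922 for Pax5sz2. The 300 ng/ml array with the named RNA in Cy5 stood apart, with 295 spots marked as outliers against 37 to 115 on the other arrays.

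The direction of the 1000 ng/ml pair is not settled. Per the file headers, its slides are marked as rehybridised. Its arrays were extracted with other settings, a multiplier of 2.6 in place of 13 and no multiplicative detrending. Over 41174 probes its ratios correlated negatively with those at 300 ng/ml when arrays of like dyes were paired (r = -0.359 for the Cy5 arrays of the named RNA, r = -0.46 for the Cy3 arrays). On that pair 519 features were at least 2-fold apart on both arrays. In 517 of them the channel labelled 1000 ng/ml lay nearer to the control level of the other 6 arrays than the channel labelled as control did. The same count was 36 of 378 at 10 ng/ml, 55 of 737 at 300 ng/ml and 5 of 1040 in Pax5sz2, each against the control level of the 4 arrays of the other comparisons, with the 1000 ng/ml pair left out. Whatever the size of the ratio, it was 6 of the 10 genes here on the 1000 ng/ml pair, beside 62.9% of 20043 features. The dose, the slides with their settings and the labelled direction cannot be told apart, so its values are given as labelled and also with the sign turned.

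Promoter letters are shown for the 3 SOCS-family genes whose windows held a searched motif, since these genes are the textbook cytokine-induced inhibitors. The windows come from RefSeq, build GRCm38.p6, which holds 12 promoters for 9 of the 10 genes. The first motif, TTCNNNGAA, is the STAT-type element and reads the same on both strands. It occurs in 8.3% of 32851 mouse promoters of 300 bases and in 2 of the 12, those of Cish and Socs3. The second is GAAA, any 2 bases and GAAA again, on either strand. It has the form bound by interferon regulatory factors and was added after the ratios were seen. It occurs in 3.44% of the promoters and in 1 of the 12, that of Socs1, where 2 matches overlap. Capitals mark the matches and each sequence runs 5′ to 3′ on the strand of its gene. Cish is at chr9:107296409-107296678 (plus strand), Socs3 at chr11:117969367-117969616 (minus strand) and Socs1 at chr16:10785537-10785786 (minus strand). The Socs1 and Socs3 windows are the 250 bases before the transcript start, and the Cish window also holds the first bases of the transcript, where its matches lie.
Cish: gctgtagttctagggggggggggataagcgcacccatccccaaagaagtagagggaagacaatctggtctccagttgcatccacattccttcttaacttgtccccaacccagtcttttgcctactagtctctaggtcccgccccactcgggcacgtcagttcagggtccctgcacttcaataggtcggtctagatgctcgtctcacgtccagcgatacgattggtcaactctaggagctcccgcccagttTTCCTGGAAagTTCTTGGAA
Socs3: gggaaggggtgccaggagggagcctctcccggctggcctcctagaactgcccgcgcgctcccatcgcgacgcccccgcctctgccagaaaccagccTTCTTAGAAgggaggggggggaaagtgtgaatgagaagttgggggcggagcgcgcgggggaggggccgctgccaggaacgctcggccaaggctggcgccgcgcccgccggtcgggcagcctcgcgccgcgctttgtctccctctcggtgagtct
Socs1: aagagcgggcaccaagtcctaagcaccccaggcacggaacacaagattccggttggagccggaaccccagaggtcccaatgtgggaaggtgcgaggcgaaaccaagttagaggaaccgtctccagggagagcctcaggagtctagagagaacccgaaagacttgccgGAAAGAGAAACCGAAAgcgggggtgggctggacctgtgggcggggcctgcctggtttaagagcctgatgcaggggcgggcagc
These are matches of letters in 1 window, not bound sites.

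Socs1, which encodes a direct inhibitor of JAK1 and JAK2, was above the control on both arrays of each comparison as labelled. Its single probe, at chr16:10697436-10697495 of build mm8 on the minus strand, read levels of 13.62 and 13.86 (normalized log2 intensity) in the 10 ng/ml RNA against 12.44 and 12.63 in the control on the same arrays. The 300 ng/ml RNA had 13.87 and 13.80, against 12.60 and 12.64 in the control. Every array of both doses thus had the doxycycline RNA above the control RNA, with no overlap. The ratio was 1.20 ± 0.038 at 10 ng/ml (2.3-fold) and 1.21 ± 0.076 at 300 ng/ml (2.32-fold). The ratios at these doses differed by 0.01. With median centring in place of loess the means were 1.52 and 1.42, but the arrays split by dye, 2.14 (named RNA in Cy5) and 0.89 (in Cy3) at 10 ng/ml and 2.17 and 0.67 at 300 ng/ml, so that Socs1 was then not 2-fold higher on both arrays of either dose. Among all features, the loess ratios of 1.20 and 1.21 stood at the 99.5 and 99.1 percentiles.

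In Pax5sz2 RNA, Socs1 had levels of 13.16 and 13.45, against 12.61 and 12.77 in the control. The ratio was 0.62 ± 0.091 (1.54-fold), higher on both arrays but under 2-fold. Median centring gave a mean of 1.08, from 1.56 and 0.61. With loess the cells without huPax5 had about 0.58 to 0.59 log2 less of a Socs1 ratio than clone4 at 10 and 300 ng/ml, and with median centring the gap was smaller. These differences run through the control. The control level itself was 12.61 ± 0.10 (SD) over the 6 arrays of these comparisons, from 12.44 to 12.77, below each named level there.

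On the 1000 ng/ml pair, Socs1 levels were 12.35 and 12.21 in the channel labelled 1000 ng/ml, against 11.21 and 11.16 in the channel labelled as control. As labelled the ratio was 1.09 ± 0.063, and with the sign turned it was -1.09. The labelled named level lay 0.34 below the control of the 6 other arrays, and the labelled control level 1.43 below it. Over all features the control level of this pair differed from that of the 6 others by -0.03 at the median, with the lowest and highest 5% of features beyond -1.05 and 0.65. As labelled and with loess, Socs1 was 1 of only 2 features of 19862 at least 2-fold higher on all 6 dose arrays. With median centring its 1000 ng/ml arrays were at 2.02 and -0.01, and this no longer held. The other feature was Oasl2, an interferon-induced gene of the oligoadenylate synthetase family, with ratios of 1.66 ± 0.17, 1.19 ± 0.098 and 1.21 ± 0.060 at the 3 doses in rising order and 1.34 ± 0.29 in Pax5sz2. With the 1000 ng/ml sign turned, these become the 2 features that are 2-fold higher at 10 and 300 ng/ml and 2-fold lower at 1000 ng/ml, and 3 other features are higher at all 3 doses.

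**Figure D1:**
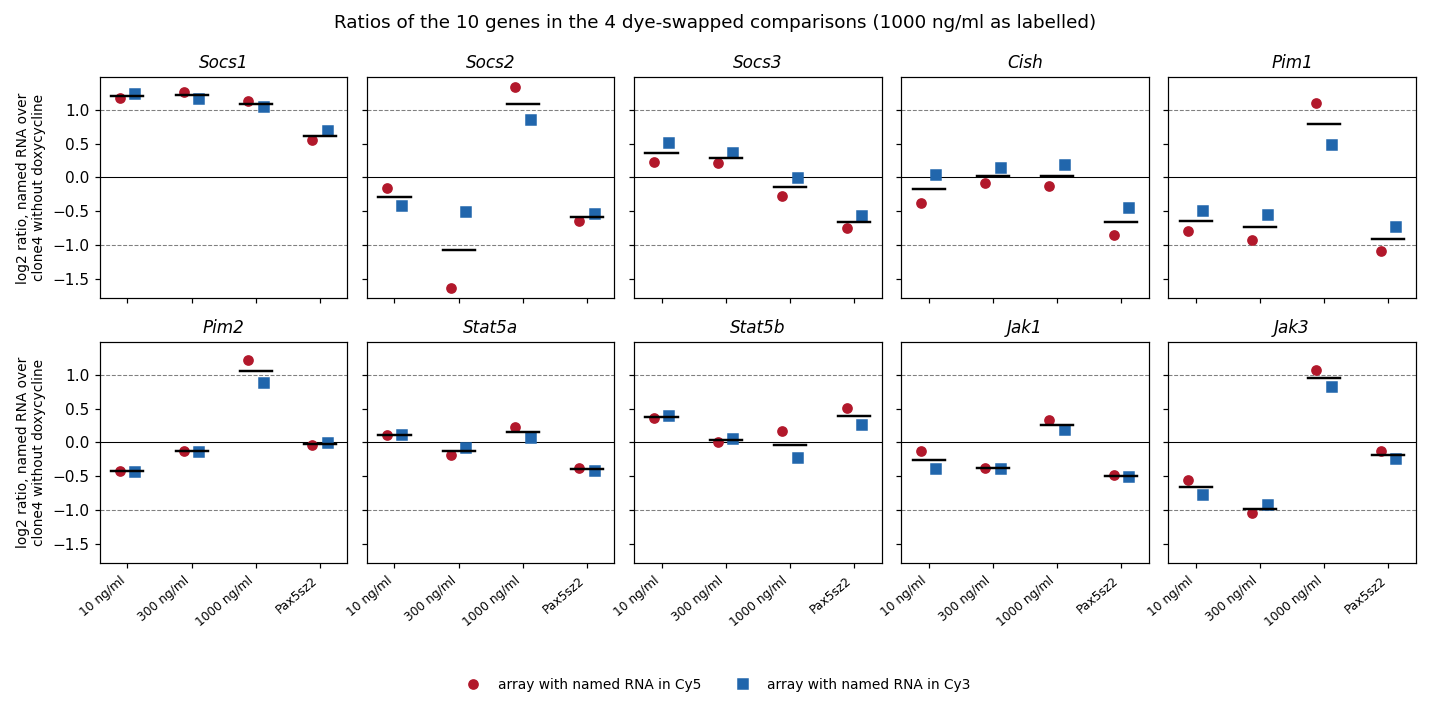
Log2 ratio of the named RNA over clone4 without doxycycline for the main probe of each gene, in the 10, 300 and 1000 ng/ml and Pax5sz2 comparisons. Circles are arrays with the named RNA in Cy5, squares with it in Cy3, bars their mean, and dashed lines 2-fold. Socs1 lies above 1 on all 6 dose arrays as labelled, while Socs2, Pim1, Pim2, Jak1 and Jak3 are below 0 at 10 and 300 ng/ml and above 0 at 1000 ng/ml as labelled.

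Of the 10 genes, Socs1 alone reached 2-fold on both arrays of any comparison with loess. With median centring 0 did at any dose, and with the processed signals, the series matrix or a background offset of 0 there were 2 at 1000 ng/ml as labelled. At 10 ng/ml 1 of 10 genes was 2-fold higher, where 0.607% of 20112 features were, and 0 were 2-fold lower, where 1.27% were (1.88% in either direction). At 300 ng/ml it was 1 higher, beside 1.32% of 19940 features, and 0 lower, beside 2.37% (3.7% in either direction). At 1000 ng/ml as labelled it was 1 higher, beside 1.95% of 20043 features, and 0 lower, beside 0.639% (2.59% in either direction). With the sign turned these become 0 higher and 1 lower. In Pax5sz2 it was 0 higher, beside 2.33% of 20117 features, and 0 lower, beside 2.84% (5.17% in either direction). The members were chosen with these ratios known, so nothing is read from the counts. The median ratio of the 10 genes was -0.22 at 10 ng/ml and -0.13 at 300 ng/ml, then 0.52 at 1000 ng/ml as labelled, and -0.45 in Pax5sz2. The median over all features was 0.01, 0.00, 0.00 and 0.03 in that order. Several member ratios in Pax5sz2 were smaller in size with median centring and are given below.

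Socs2, whose product restrains growth hormone and other STAT5-activating receptors, went the other way from Socs1. Its main probe (chr10:94842120-94842179 of mm8) read 14.59 and 14.29 in the 10 ng/ml RNA against 14.74 and 14.72 in the control, a ratio of -0.29 ± 0.20. At 300 ng/ml the levels were 12.99 and 14.16, against 14.63 and 14.66 in the control. The doxycycline RNA was below the control on each of these arrays, but by unequal amounts, and at 10 ng/ml the gap is small. The 300 ng/ml ratio was -1.64 on the array that stood apart and -0.51 on the other. A second Socs2 probe showed the same split, with -1.65 and -0.48. Without the array that stood apart, the fold at 300 ng/ml is that of -0.51. Median centring in place of loess gave a 10 ng/ml ratio of 0.09, so the direction at that dose depends on the scaling.

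In Pax5sz2 RNA the main Socs2 probe gave -0.59 ± 0.071 and the second probe 0.32 ± 0.13, so the probes disagreed in sign there. With median centring the main probe gave -0.08. On the 1000 ng/ml pair, Socs2 read 14.72 and 14.07 in the channel labelled 1000 ng/ml, against 13.39 and 13.22 in the labelled control. The ratio was 1.09 ± 0.34 as labelled and -1.09 turned. The second probe gave 0.45 ± 0.069 as labelled. The labelled control of this pair lay 1.27 below the control of the 6 other arrays, and the labelled named RNA 0.18 below it.

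Socs3, the inhibitor best known for limiting IL-6 and STAT3 signals, had small differences in clone4. Its levels were 12.69 and 12.92 in the 10 ng/ml RNA against 12.46 and 12.42 in the control, and 12.80 and 12.93 at 300 ng/ml against 12.59 and 12.58. The ratios were 0.36 ± 0.20 and 0.28 ± 0.11, higher on all 4 arrays and under 2-fold. In Pax5sz2 RNA Socs3 was lower, at 11.58 and 11.79 against 12.33 and 12.36 in the control, a ratio of -0.66 ± 0.12 (-0.24 with median centring). The 1000 ng/ml ratio was -0.14 ± 0.18 as labelled and 0.14 turned, and 1 of the 2 arrays was at -0.01. By the probes that carry their names, Socs3 and Socs1 thus took the same side of the control at 10 and 300 ng/ml. They took opposite sides in Pax5sz2, as Socs1 was higher there. A further probe set beside Socs3 does not carry its gene name and lies outside the rule used here. Its ratios were -0.01, -0.84, -0.10 as labelled and 0.07 in the order of the comparisons, so it did not follow the named probe. Its 300 ng/ml arrays split, -1.60 on the array that stood apart and -0.07 on the other.

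Cish, the gene named for cytokine-inducible SH2 protein and a standard readout of STAT5 activity, hardly moved with the dose. Its levels were 14.47 and 14.54 in the 10 ng/ml RNA, against 14.84 and 14.50 in the control. They were 14.85 and 14.89 at 300 ng/ml, against 14.92 and 14.76 in the control. The groups overlapped, with ratios of -0.17 ± 0.29 and 0.03 ± 0.15 whose 2 arrays had opposite signs. The 1000 ng/ml ratio was 0.03 ± 0.22 as labelled and -0.03 turned, again with opposite signs on the arrays. In Pax5sz2 RNA Cish read 13.80 and 13.86, against 14.65 and 14.32 in the control, a ratio of -0.65 ± 0.27 with both arrays lower. Median centring gave Cish a mean of -0.13 there. Its window above holds the 2 matches of the STAT-type letters.

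**Figure D2:**
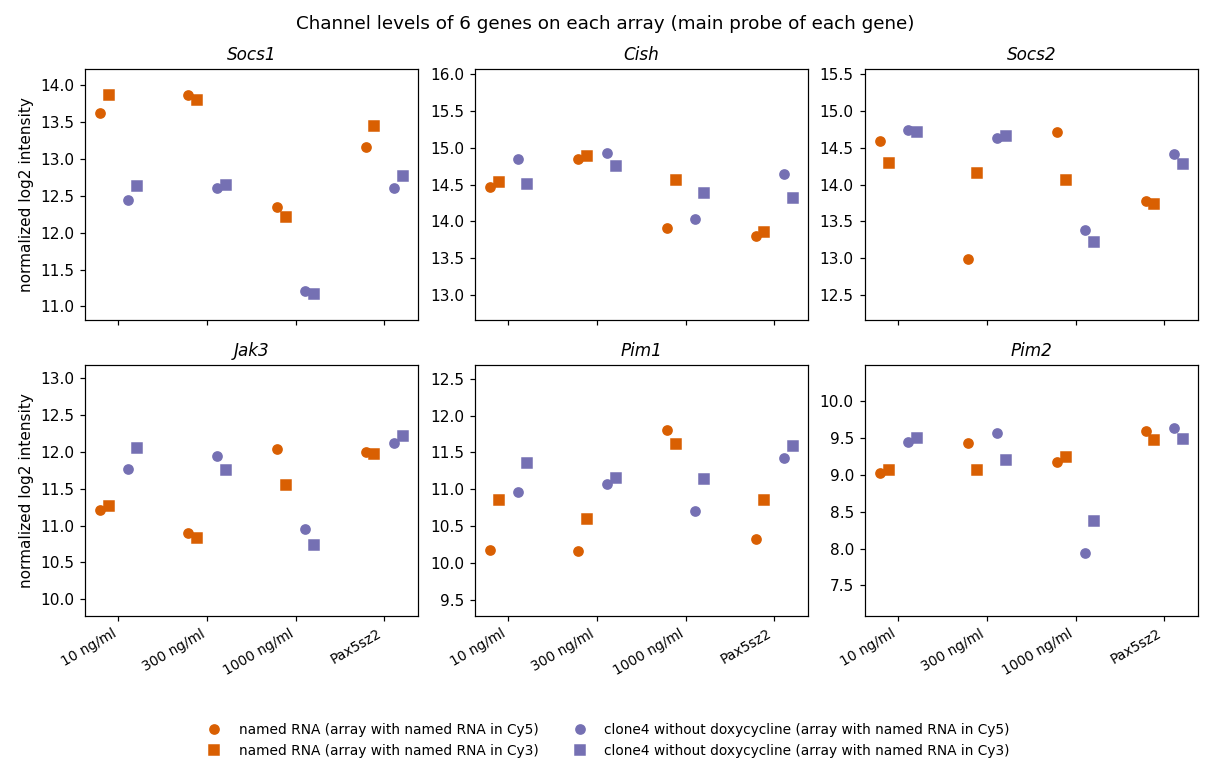
Normalized log2 intensity of 6 genes on each array, with the named RNA left of clone4 without doxycycline in each comparison (circles, array with the named RNA in Cy5, and squares, in Cy3). Each panel spans the same 3.4 log2 units, and the labelled control of the 1000 ng/ml pair is lower than the other controls for Socs1, Socs2, Jak3 and Pim2.

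The PIM kinases are STAT5 targets that promote survival and growth of lymphoid cells. Pim1 levels were 10.18 and 10.86 in the 10 ng/ml RNA against 10.96 and 11.36 in the control, and 10.16 and 10.60 at 300 ng/ml against 11.08 and 11.15. Every array had less Pim1 in the doxycycline RNA, with ratios of -0.64 ± 0.20 and -0.74 ± 0.26, short of 2-fold. Pax5sz2 RNA also had less, at 10.33 and 10.86 against 11.42 and 11.58, a ratio of -0.91 ± 0.26. Pim1 on the 1000 ng/ml pair had a ratio of 0.79 ± 0.44 as labelled and -0.79 turned. Turned, Pim1 would be lower in each of the 4 named RNAs, and as labelled it was lower in 3. A second probe named Pim1 lies on the opposite strand to the gene. Its ratios were 0.31, 0.47, -0.02 and 0.32 in the order of the comparisons, so it did not follow the main probe.

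Pim2 read 9.03 and 9.06 in the 10 ng/ml RNA, against 9.45 and 9.50 in the control, a ratio of -0.43 ± 0.018. At 300 ng/ml it was 9.44 and 9.06 against 9.56 and 9.20, a ratio of -0.13 ± 0.0061, and in Pax5sz2 the ratio was -0.02 ± 0.021, which turned positive with median centring (0.26). The 1000 ng/ml pair stood apart from this, at 9.17 and 9.25 in the channel labelled 1000 ng/ml against 7.94 and 8.37 in the labelled control. That ratio was 1.05 ± 0.24 as labelled and -1.05 turned. The second Pim2 probe gave -0.06 ± 0.25 at 10 ng/ml and 0.06 ± 0.091 at 300 ng/ml, then 0.71 ± 0.25 at 1000 ng/ml as labelled and -0.40 ± 0.18 in Pax5sz2. Every array of both probes was thus on 1 side of 0 at 1000 ng/ml and in Pax5sz2, and not at 10 or 300 ng/ml.

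Stat5a and Stat5b, the pair of transcription factors themselves, had ratios between -0.40 and 0.38 in every comparison by their main probes. Stat5a had 11.03 and 11.33 in the 10 ng/ml RNA against 10.91 and 11.23, and 10.92 and 10.89 at 300 ng/ml against 11.10 and 10.98. The ratios of 0.11 ± 0.0065 and -0.13 ± 0.065 lay on opposite sides of 0, and the 300 ng/ml sign turned with the array maker's processed signals (0.13). In Pax5sz2 the Stat5a ratio was -0.40 ± 0.038 (-0.03 with median centring), and at 1000 ng/ml it was 0.15 ± 0.11 as labelled and -0.15 turned. Stat5b had ratios of 0.37 ± 0.023 with 10 ng/ml, 0.03 ± 0.034 with 300 ng/ml and 0.38 ± 0.17 in Pax5sz2. The 1000 ng/ml arrays of Stat5b were at 0.17 and -0.23. The other 2 Stat5b probes ranged from -0.26 to 0.35 and were not well above background on the 1000 ng/ml pair.

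Jak1, the kinase shared by many cytokine receptors, and Jak3, the kinase that sits on the common gamma chain, were both lower in clone4 with 10 or 300 ng/ml. Jak3 read 11.21 and 11.27 in the 10 ng/ml RNA against 11.76 and 12.05 in the control, and 10.90 and 10.83 at 300 ng/ml against 11.94 and 11.75. The groups did not overlap. The Jak3 ratio was -0.67 ± 0.16 at 10 ng/ml and -0.98 ± 0.081 at 300 ng/ml, the second just short of the 2-fold rule because 1 array was at -0.93. In Pax5sz2 it was -0.18 ± 0.087, and 0.24 with median centring. The 1000 ng/ml pair read Jak3 at 12.03 and 11.55 in the channel labelled 1000 ng/ml, against 10.95 and 10.73 in the labelled control, a ratio of 0.95 ± 0.18 as labelled and -0.95 turned.

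The other Jak3 probes had smaller ratios, -0.15 and 0.03 at 10 ng/ml, -0.39 and -0.29 at 300 ng/ml, 0.92 and 0.59 at 1000 ng/ml as labelled, and -0.37 and -0.45 in Pax5sz2. All 3 probes were thus lower at 300 ng/ml on both arrays and higher at 1000 ng/ml as labelled. Jak1 ratios by the main probe were -0.26 ± 0.19 with 10 ng/ml, -0.38 ± 0.010 with 300 ng/ml and -0.50 ± 0.019 in Pax5sz2, each lower on both arrays. However, median centring gave Jak1 means of 0.02 at 10 ng/ml and -0.07 in Pax5sz2. Its 1000 ng/ml ratio was 0.26 ± 0.11 as labelled and -0.26 turned. A second Jak1 probe on the same strand gave -0.10, -0.11, 0.10 as labelled and 0.37 in Pax5sz2, the last of opposite sign to the main probe. Another Jak1 probe lies on the opposite strand and stayed between -0.05 and 0.15.

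**Figure D3:**
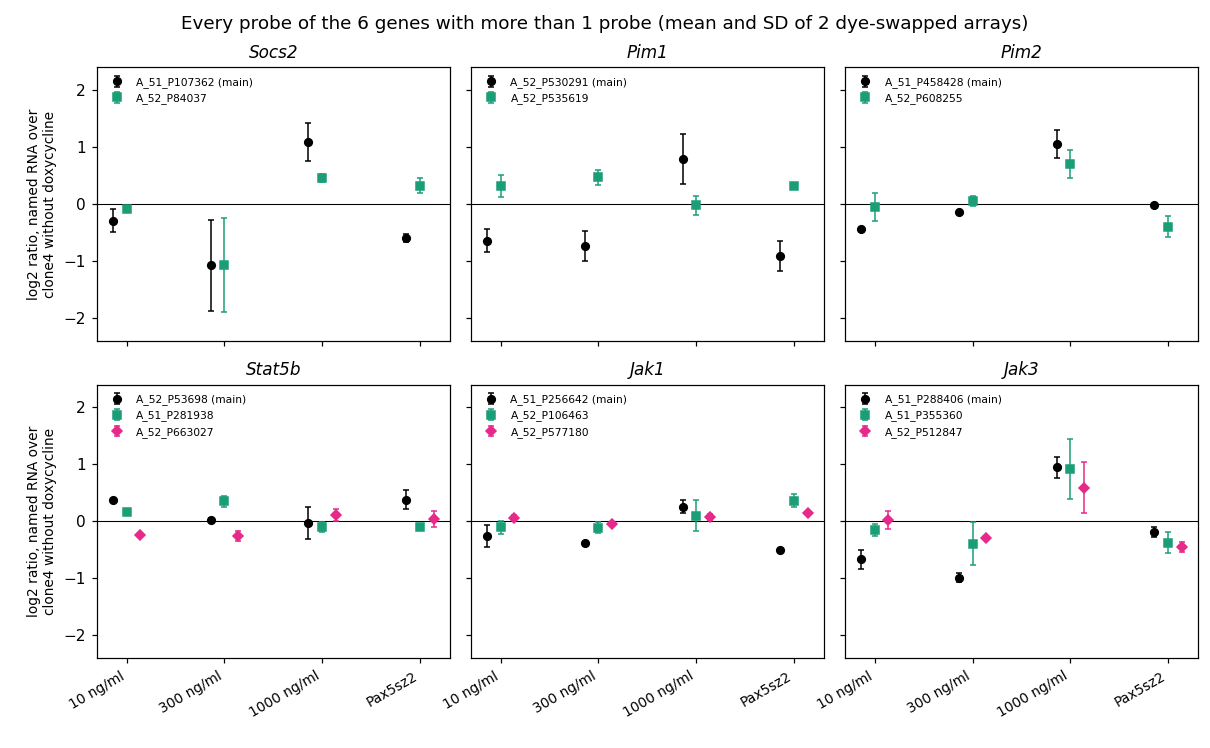
Mean log2 ratio and SD of 2 dye-swapped arrays for every probe of the 6 genes with more than 1 probe, in the 10, 300 and 1000 ng/ml and Pax5sz2 comparisons (1000 ng/ml as labelled). The 3 Jak3 probes and both Pim2 probes are above 0 at 1000 ng/ml, and the Socs2 and Jak1 probes separate in Pax5sz2.

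Set side by side, 5 of the 10 genes (Socs2, Pim1, Pim2, Jak1 and Jak3) were lower on both arrays at 10 and at 300 ng/ml and higher on both at 1000 ng/ml as labelled, with the exceptions under other scalings given above for Socs2 and Jak1. With the 1000 ng/ml sign turned these 5 are lower at all 3 doses. Among all 19862 features, 33 were at least 2-fold lower at both 10 and 300 ng/ml and at least 2-fold higher at 1000 ng/ml as labelled, and 3 the reverse. Only 2 were at least 2-fold higher at all 3 doses and 1 lower at all 3. These feature counts use the 2-fold rule, which the 5 genes did not meet, so they are no measure of how rare the 5 of 10 is. The share of all features with that sign pattern at any size was not counted. Over all probes the 1000 ng/ml ratios as labelled correlated negatively with those at 300 ng/ml, and nothing is read from the 5 of 10. Under either reading Socs1 and these 5 genes had opposite signs at 10 and 300 ng/ml and the same sign at 1000 ng/ml. By the labels the comparisons share their control.

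The genes nearest to Socs1 in their 4 ratios as labelled, among 14729 named features, were Irf7, Soat1, Tmem119, Sephs2 and Oas1f. Distance here is Euclidean over the 4 ratios, 0.47 for Irf7 and 0.58 for Oas1f. Irf7, an interferon regulatory factor, had ratios of 1.11, 1.09, 1.00 and 0.19, and Oas1f, a 2′-5′ oligoadenylate synthetase, 0.92, 0.92, 0.70 and 0.78. The genes between them, at distances of 0.55 to 0.57, had 0.93, 0.83, 0.80 and 0.63 (Soat1), 0.83, 0.95, 1.40 and 0.58 (Tmem119) and 1.07, 1.15, 0.60 and 0.37 (Sephs2). Soat1 makes cholesterol esters, and its 2 other detected probes stayed between -0.12 and 0.20. Without the 1000 ng/ml ratio, the nearest of 14788 were Cmpk2 at a distance of 0.06, then Plpp3, Tcf7l1, Adam23 and Gemin4. Cmpk2, an interferon-induced nucleotide kinase, had ratios of 1.18, 1.23 and 0.57 at 10 ng/ml, 300 ng/ml and Pax5sz2, but -0.19 at 1000 ng/ml as labelled. Its second probe followed at 10 and 300 ng/ml (1.12 and 0.79) and not in Pax5sz2 (-0.19). In the same 3 comparisons Plpp3 had 1.17, 1.29 and 0.48, Tcf7l1 1.12, 1.22 and 0.45, Adam23 1.05, 1.35 and 0.62, and Gemin4 1.08, 1.39 and 0.66.

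The rest of the pathway was read from 5 textbook lists with 54 distinct genes measured (52 on both arrays at 300 ng/ml), chosen like the members with earlier results of these arrays known. At 10 ng/ml 6 of the 54 were 2-fold higher and 0 lower, beside 0.607% and 1.27% of all features. At 300 ng/ml it was 6 and 2, beside 1.32% and 2.37%. At 1000 ng/ml as labelled it was 3 and 1, beside 1.95% and 0.639%. In Pax5sz2 it was 7 and 2, beside 2.33% and 2.84%. As with the members, nothing is read from these counts. The median ratios were 0.11, 0.02, 0.18 and 0.04 in that order, against 0.01, 0.00, 0.00 and 0.03 over all features. Turned, the 1000 ng/ml count is 1 higher and 3 lower.

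Among the 8 measured receptor chains of the gamma-chain cytokines, 0 were 2-fold different at 10 ng/ml and in Pax5sz2. Il2ra, the high-affinity IL-2 receptor chain, was 2-fold lower at 300 ng/ml (-1.26 ± 0.25) and higher at 1000 ng/ml as labelled (2.37 ± 0.12). Its 3 other probes ran from -1.02 to 0.25 and from 0.34 to 0.75 in those comparisons. Il7r, the receptor chain that binds IL-7, had -0.48 ± 0.21 at 10 ng/ml and -1.82 ± 1.65 at 300 ng/ml, where the array that stood apart gave -2.99 and the other -0.65. The other Il7r probes gave -0.54 and -0.41 at 10 ng/ml, and -0.56 and -0.86 at 300 ng/ml. Il2rg, the common gamma chain itself, had -0.34 ± 0.18 at 10 ng/ml and -0.92 ± 0.035 at 300 ng/ml, then 0.74 ± 0.17 at 1000 ng/ml as labelled and -0.60 ± 0.092 in Pax5sz2. The receptor chain and its kinase Jak3 had the same sign in each comparison, except that Jak3 was above 0 in Pax5sz2 with median centring.

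Of 6 other JAKs and STATs, 0 were 2-fold different at 10 or 300 ng/ml. Stat3, best known as the transducer of IL-6 signals, was 2-fold higher at 1000 ng/ml as labelled (1.07 ± 0.082) and lower in Pax5sz2 (-1.82 ± 0.59), but its other probe gave 0.11 and -0.07. Of 16 other inhibitors, Socs5 was higher in Pax5sz2 (1.29 ± 0.042). The ubiquitin ligase gene Cbl was lower at 300 ng/ml (-1.27 ± 0.26) and in Pax5sz2 (-1.38 ± 0.28), where its other probe gave 0.08 and -0.25. The phosphatases and PIAS genes of that list did not reach 2-fold on both arrays in any comparison, although the phosphatase gene Ptpn2 was read on 1 array only at 300 ng/ml (0.48).

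Of 12 other STAT5 target genes, Id1, an inhibitor of E proteins that also answers BMP signals, was higher with 10 ng/ml (1.79 ± 0.020), with 300 ng/ml (1.57 ± 0.20) and in Pax5sz2 (1.39 ± 0.028). Both its probes gave like values. Its 1000 ng/ml ratio was 0.04 ± 0.12 as labelled. Ccnd1, encoding cyclin D1, reached 1.32 ± 0.051 in Pax5sz2. At 1000 ng/ml as labelled the survival gene Bcl2 was higher by its main probe (1.35 ± 0.12) and Ccnd3, encoding cyclin D3, lower (-2.12 ± 0.48), and these signs turn with the pair. With the median over probes, 0 pathway genes were 2-fold higher on that pair as labelled, so Bcl2 no longer passed.

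The interferon target list, with 13 measured genes, held 5 of the 6 pathway genes past 2-fold at 10 ng/ml and 5 of the 8 with 300 ng/ml. It held 0 of the 4 on the 1000 ng/ml pair and 4 of the 9 in Pax5sz2, and each of its genes counted here was higher. Isg15, a ubiquitin-like interferon product, had ratios of 2.28 ± 0.14 with 10 ng/ml, 2.43 ± 0.18 with 300 ng/ml and 1.30 ± 0.10 in Pax5sz2. Usp18, the protease that removes ISG15 and itself dampens interferon signalling, had 2.94 ± 0.10 at 10 ng/ml and 2.39 ± 0.050 in Pax5sz2. Its 300 ng/ml arrays split, 0.98 on the array that stood apart and 2.93 on the other. Ifit1 had 2.01 ± 0.27, 2.13 ± 0.18 and 1.23 ± 0.27, and Ifit3 had 1.94 ± 0.059, 2.32 ± 0.19 and 1.09 ± 0.11, at 10 ng/ml, 300 ng/ml and in Pax5sz2. The chemokine gene Cxcl10 had 1.77 ± 0.28 at 10 ng/ml and 2.54 ± 0.075 at 300 ng/ml, but -0.25 ± 0.18 in Pax5sz2. At 1000 ng/ml as labelled Isg15 (-0.09), Ifit1 (-0.05) and Ifit3 (-0.31) were near or below 0 and Usp18 was at -0.80 ± 0.0065, while Socs1 and Irf7 were at 1.09 and 1.00. With the sign turned, Usp18 is above 0 there, at 0.80, and Socs1 and Irf7 are below. Under neither reading did Socs1 and Usp18 have the same sign at 1000 ng/ml, although they did in the 3 other comparisons.

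**Figure D4:**
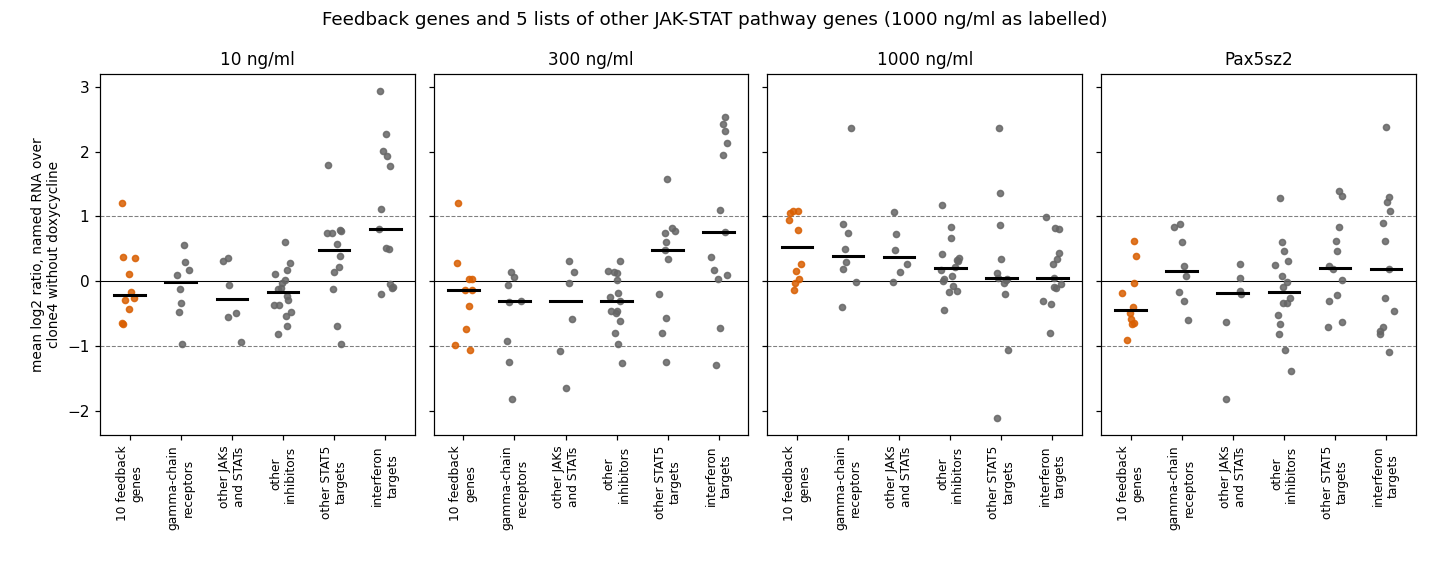
Mean log2 ratio of the 10 feedback genes (orange) and of the genes of 5 other JAK-STAT lists (grey) in each comparison, 1000 ng/ml as labelled. Points are genes, bars list medians and dashed lines 2-fold. The interferon targets range from -0.20 to 2.94 at 10 ng/ml and from -1.30 to 2.54 at 300 ng/ml, while Socs1 is the single feedback gene above 1 at both doses.

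Markers of other cells moved with these comparisons. Of 15 stromal feeder genes, 3 were 2-fold higher at 10 ng/ml, 8 with 300 ng/ml, 0 on the 1000 ng/ml pair and 4 in Pax5sz2, where 1 was lower. At 300 ng/ml 14 of the 15 had a value on both arrays. Over all features 0.607%, 1.32%, 1.95% and 2.33% were higher in that order, and 1.27%, 2.37%, 0.639% and 2.84% lower. These shares stand beside the counts of each marker list. Their summed level was 41735 to 47534 in the 300 ng/ml RNA and 24535 to 24757 in its control (linear normalized intensity). The collagen genes Col1a1 and Col3a1 and the growth factor receptor gene Pdgfrb were well above background in every RNA on every array. Of 13 measured myeloid genes, 1 was higher and 1 lower at 10 ng/ml, 5 were lower at 300 ng/ml, 5 higher at 1000 ng/ml as labelled and 3 lower in Pax5sz2. Their summed level was 9683 to 12247 in the 300 ng/ml RNA against 45388 to 50127 in its control. On the 1000 ng/ml pair it was 46824 to 57791 in the channel labelled 1000 ng/ml, against 4734 to 5591 in the labelled control. Such linear sums weigh the brightest genes most, so they are no measure of the list as a whole. Ctsg, a granule protease gene that is part of these sums, read 11.69 at 300 ng/ml against 14.66 in its control, and 14.54 against 9.41 on the 1000 ng/ml pair as labelled. Mpo and Csf1r were not well above background in the labelled control of that pair. The myeloid list median (-0.57 at 300 ng/ml and 0.91 at 1000 ng/ml as labelled) thus lay on the same side of 0 as Socs2, Pim1, Pim2, Jak1 and Jak3. Its part, and that of the stromal list, in the ratios of the 10 genes was not tested, and in whole cultures fewer cells of a type and less RNA per cell cannot be told apart.

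Of 13 pro-B and pre-B genes, 2 were higher at 300 ng/ml, 4 lower at 1000 ng/ml as labelled, and 2 higher and 4 lower in Pax5sz2. Dntt, the terminal transferase gene, had a main probe value on 1 array only at 300 ng/ml (-2.48) and is not in that count, which covers 12 genes. Its 2 other detected probes were at -2.44 and -2.42. Cd79a and Cd79b, the signalling chains of the B cell receptor complex, were well above background in every RNA on every array. Vpreb1 and Igll1, the surrogate light chain genes that mark pro-B cells, were well above background on both arrays of both RNAs in the Pax5sz2 comparison and nowhere else on both arrays. Their levels were 17.81 and 14.33 in Pax5sz2 RNA against 9.93 and 8.68 in clone4 without doxycycline on the same arrays. On the dose arrays the control levels were 6.10 and 6.22 (10 ng/ml), 6.08 and 6.24 (300 ng/ml) and 7.08 and 6.45 (1000 ng/ml as labelled). The control thus read higher for both genes on the Pax5sz2 arrays than on the others, although the labels name it alike, and the cause was not tested. Of the 4 defining genes of the labelled cell type, clone4 RNA thus had Cd79a and Cd79b, while the surrogate light chain genes were at or near background on the dose arrays. Of 6 measured T and NK genes, 1 was lower at 300 ng/ml, 1 higher at 1000 ng/ml as labelled and 2 higher in Pax5sz2. Neither list's part in the ratios was tested.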

How the data were processed

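The members and the gene lists were chosen with earlier results of these data known. The deposited scanner files hold, per the file headers, a mean spot intensity and a median background intensity for each dye with no normalization, and processed signal intensity values after background subtraction and dye normalization by Feature Extraction 10.5.1.1. That software's log10 ratio (Cy5 over Cy3) is deposited in the same files. The deposited series matrix holds the same log10 ratio turned to named RNA over control, to within 5e-06 of the scanner values. The 1000 ng/ml pair had no multiplicative detrending, per the file headers.

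With R 4.3.3 and limma 3.58.1, background was corrected by normexp with an offset of 50, ratios were normalized by loess within each array (control spots at weight 0), and outlier spots were left out. Channel levels were scaled between arrays by Aquantile. The size rule, with no test, was tested on simulated data. The brightest probe stood for a gene, and a feature was kept if both arrays of some comparison had 1 RNA well above background. Dye-swapped arrays counted as 1 sample. Named genes were all members, the list genes past 2-fold, the 5 nearest to Socs1, and Oasl2, Il7r, Il2rg and marker genes, which were added after their values were seen. Probe coordinates are mm8, from the files. One gene of the lists is not reported here and was left out of their counts. The alternatives were median centring, processed signals, the series matrix, offset 0, outliers kept, the median over probes, no dim filter, each array left out and the 1000 ng/ml sign turned. Figures used Python 3.11.15 and matplotlib 3.10.9.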

Additional observations from a re-analysis of the deposited data

Results flagged for a closer look

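In 7 of the 10 genes both arrays at 1000 ng/ml as labelled lay on the other side of 0 from both arrays of a lower dose. The share of all features for which this held was not counted, so nothing is read from the 7 of 10. Over all probes the 1000 ng/ml ratios as labelled correlated negatively with those at 10 and at 300 ng/ml. These differences between doses were not tested, run through a control that the doses share by the labels, and hold for the 1000 ng/ml pair only as labelled. With its sign turned, these genes lie on the same side of 0 at the doses compared here, but Socs1 at 1000 ng/ml (-1.09) then lies opposite to both lower doses, and Stat5a (-0.15) opposite to 10 ng/ml. Given as log2 of 1000 ng/ml minus 10 ng/ml, then minus 300 ng/ml, Jak3 differed by 1.61 and 1.93, and Pim1 by 1.43 and 1.52. Socs2 differed by 1.38 and 2.16, where the size at 300 ng/ml depends on the array that stood apart. Pim2 differed by 1.48 and 1.18, and Jak1 by 0.52 and 0.64. Socs3 went the other way, by -0.50 and -0.42. Stat5a differed by 0.28 between 1000 and 300 ng/ml, and by -0.25 between 300 and 10 ng/ml, a pair that does not involve the 1000 ng/ml arrays.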

How the results depend on the processing

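Over the 32 values per gene with the labelled direction, the sign held in all 32 for Socs1, Socs3 and Pim1, in 31 for Socs2 and Jak3, in 30 for Stat5a, Stat5b and Jak1, in 29 for Pim2 and in 27 for Cish. Many of these values could not differ. The processed signals and the series matrix gave like ratios, and keeping outliers changed no member. For genes with 1 probe that carries their name, such as Socs1 and Socs3, the median over probes is the main value. Where both arrays were used, the sign is that of their mean. With median centring in place of loess, Socs1 had 1.52, 1.42 and 1.00 at the doses from low to high and 1.08 in Pax5sz2. Its arrays then split by dye, 2.14 and 0.89, 2.17 and 0.67, 2.02 and -0.01, and 1.56 and 0.61, so that 0 members were past 2-fold on both arrays at 10, 300 and 1000 ng/ml, and 1 pathway gene at 1000 ng/ml in place of 4. Median centring moved the median of all features in Pax5sz2 to 0.15, so that Socs1 was 0.94 above it. It also moved the share of calls that were higher to 50% against 32.3% with loess (10 ng/ml), 20.2% against 35.8% (300 ng/ml) and 70.0% against 45.1% (Pax5sz2). In Pax5sz2 it gave -0.08 for Socs2, -0.24 for Socs3, -0.13 for Cish, -0.55 for Pim1, -0.03 for Stat5a and -0.07 for Jak1. Pim2 and Jak3 had 0.26 and 0.24. These values are not set against the all-feature median of 0.15, and the Pax5sz2 sizes thus depend on the scaling. With the processed signals or the series matrix, Socs1 had 1.24 at 10 ng/ml, 2 members were past the size at 1000 ng/ml, and 10 pathway genes at 10 ng/ml and 9 at 1000 ng/ml, in place of 6 and 4. Offset 0 gave 2 members at 1000 ng/ml, and the median over probes 1 pathway gene. With the 1000 ng/ml sign turned, Socs1 had -1.09, 1 member was lower, and 4 pathway genes passed, 1 higher and 3 lower. The cause of these changes was not tested.

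Leaving out 1 array of a pair gave counts of past-size members of 1 (10 ng/ml), 1 to 3 (300 ng/ml), 1 to 5 (1000 ng/ml) and 0 to 1 (Pax5sz2). For pathway genes the counts were 7 to 9 (10 ng/ml), 10 to 14 (300 ng/ml), 6 to 8 (1000 ng/ml) and 10 to 11 (Pax5sz2). With 1 array left the rule asks for 2-fold on that array alone, so no count could fall below that of both arrays. The higher counts are thus no check of the calls. No paired analysis was possible because each group is 1 RNA on 2 technical arrays and no test was made. Low signal limits the opposite-strand probes of Pim1 and Jak1 and the other Stat5b probes.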
